A study of Mus musculus with 6 samples.

Results

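The 3 clones of Pkd1 induced renal epithelial cells in this study, numbered 4, 7 and 21, were compared with each other through all 6 of the 6 sequenced libraries. The libraries were assigned by the clone number in their titles, and each clone was represented by 2 cultures, 1 labelled Cre and 1 labelled Flp. The Cre cultures are labelled as Pkd1 knockout (Pkd1 -/-) and the Flp cultures as floxed and not deleted (Pkd1 fl/fl). Both kinds carry the strain label B6.129S4-Pkd1tm2Ggg/J and grew to confluency in serum-containing fibroblast medium before total RNA was taken. No culture was therefore a wild-type reference, and the labels do not say whether the clones came from separate animals. The 2 cultures of a clone also differ in recombinase and in Pkd1, and the test takes out the Cre to Flp difference that the clones share. The p-values therefore rest on how much that difference varied from clone to clone. They do not measure the spread between repeated cultures of an identical clone.

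Induced renal epithelial cells are fibroblasts that have been turned into tubule-like cells by added kidney transcription factors, among them Emx2, Hnf4a and Pax8. A clone grows from a single cell, and what that cell carried can be passed on to its descendants. Examples are where the factor genes had inserted, which chromatin regions were silent and how far conversion had gone. The number of copies of a chromosome is another. Clonal lines made in the same way therefore often differ in genes that have nothing to do with the treatment under study.

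Total counts per library ranged from 25196120 to 46918341. A count of 0 allowed up to 0.0639 CPM, a read count scaled to a common library size, in the deepest library and up to 0.119 CPM in the shallowest, counting error only. The transcripts of these 3 factors were nearly even: Emx2 was at 815 to 973 CPM, Hnf4a at 1185 to 1358 CPM and Pax8 at 240.2 to 286 CPM over the 6 libraries. These transcripts may come from the added or from the cell's own gene copies, which the counts do not tell apart. Pkd1 was at 145/199 CPM in clone 4, 105/229 in clone 7, 118/166 in clone 21, with the Cre value before the stroke and the Flp value after it, and in this order throughout. Its log2 difference from the other clones lay between -0.22 and 0.20, with standard errors of 0.17.

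The libraries were first checked against their clone labels. Over 15981 genes, log2 CPM of the 2 cultures of a clone correlated at 0.9796 for clone 4, at 0.9699 for clone 7 and at 0.9776 for clone 21 (Pearson's r across genes, which are not independent replicates). Between clones r ran from 0.9588 to 0.9827, and the highest of all 15 pairs was Cre clone 4 with Flp clone 7. The values within clones thus lay inside the range of those between clones. Genes with at least 10 reads in both cultures of a clone and none in the other 4 libraries numbered 0 for clones 4 and 7 and 1 for clone 21. Across the other pairs of libraries there were 0 to 2 such genes. The clone labels were therefore not recovered from whole libraries, and every result below takes them as given.

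**Figure D1:**
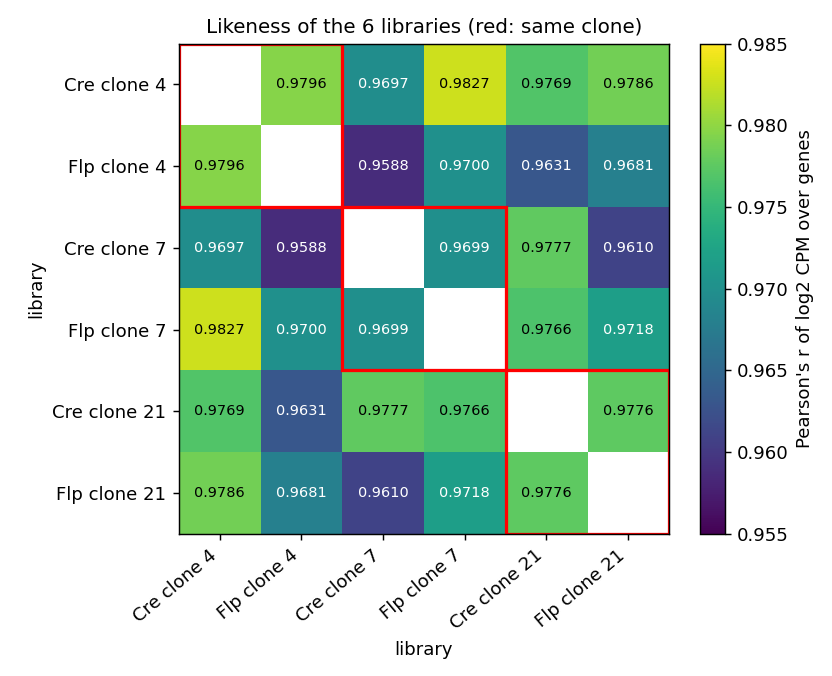
Pearson's r of log2 CPM over 15981 genes for each pair of the 6 libraries, with red frames around pairs from 1 clone. The framed values, 0.9699 to 0.9796, lie within the range of the other pairs, 0.9588 to 0.9827.

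Few genes passed a test of the clone term. edgeR's quasi-likelihood test, with recombinase as a block and an adjusted p under 0.05, called 1 of 15981 genes for any difference between the clones (0.00626%), and 1258 genes had an unadjusted p under 0.05. For clone 4 against the mean of the other clones it called 1 gene higher (0.00626%) and 1 lower (0.00626%), with 1385 genes under an unadjusted p of 0.05. Clone 21 likewise had 1 gene called higher (0.00626%) and 1 lower (0.00626%), with 1200 under the unadjusted threshold. For clone 7 it called 0 genes in either direction (0%), with a smallest adjusted p of 0.0624 and 895 genes under an unadjusted p of 0.05. These counts differed with the tool and with the library left out. DESeq2 called 417 genes for the clone term and 347, 218 and 160 genes for clones 4, 7 and 21, whereas limma-voom called 5, 0, 0 and 0. The clone term had 0 calls without Cre clone 4, 2 without Flp clone 4, 91 without Cre clone 7, 6 without Flp clone 7, 22 without Cre clone 21 and 7 without Flp clone 21.

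Genes were therefore also described by separation, which uses no test: a gene separated a clone when both its cultures lay above, or both below, all 4 other libraries in log2 CPM. Clone 4 was separated by 1148 genes that were higher (7.18% of those tested) and 1196 that were lower (7.48%). Clone 7 had 849 higher (5.31%) and 870 lower (5.44%). Clone 21 had 1665 higher (10.4%) and 1359 lower (8.5%). Both cultures of a clone can lie above or below all 4 other libraries without any clone effect. These counts are therefore not numbers of genes that differ by clone, and the share to be had without such an effect was not estimated. Separation with a gap of at least 2-fold held for far fewer genes, 37 higher (0.232%) and 29 lower (0.181%) in clone 4, 22 higher (0.138%) and 19 lower (0.119%) in clone 7, and 21 higher (0.131%) and 53 lower (0.332%) in clone 21. The 3 comparisons share libraries, so a gene that is very low in 1 clone also moves the contrasts of the others. Gene groups below are given by how many of their tested members separated a clone, read against these shares, and by their median log2 difference, which was 0.00 for clone 4, 0.01 for clone 7 and -0.01 for clone 21 over all genes. edgeR called 0 members of the 24 gene groups in any clone, and so did limma-voom, while DESeq2 made 77 calls over all groups and clones. The genes that edgeR did call, named below, were in none of these groups. DESeq2 counts of a group are to be read against what it called among all 15981 genes. Those totals were 174 higher with 173 lower (clone 4), 131 with 87 (clone 7) and 44 with 116 (clone 21). Whether any group exceeded such totals was not tested.

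The 3 genes called by edgeR that also separated a clone were Vwce, Cpt1c and Slc38a4. Vwce (chromosome 19, 10634213 to 10666213, GRCm38), which encodes a secreted-type protein with von Willebrand factor C and EGF-like domains, was nearly silent in clone 21. It stood at 43.5/38.5 CPM in clone 4, 31.6/42.3 in clone 7, 0.379/0.338 in clone 21. All 4 libraries of the other clones were within a narrow range, and both clone 21 libraries lay far below it. The log2 difference of clone 21 was -6.72 ± 0.28 (SE, edgeR adjusted p = 0.00843), the smallest adjusted p in these contrasts. The call was lost with limma-voom (adjusted p = 0.0806) and without Cre clone 4 (adjusted p = 0.128). Vwce was also the gene called higher in clone 4 (adjusted p = 0.0411) and the 1 gene called for the clone term (adjusted p = 0.0263), although the levels of clones 4 and 7 overlapped.

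Cpt1c (chromosome 7, 44959372 to 44974851), the brain-type member of the carnitine palmitoyltransferase family, had its low clone elsewhere, in clone 4. Levels were 0.567/0.364 CPM in clone 4, 12.4/13.3 in clone 7, 31.6/19.8 in clone 21. The clones did not overlap, with clone 4 near 0, clone 7 between and clone 21 highest. The log2 difference of clone 4 was -5.27 ± 0.34 (SE, edgeR adjusted p = 0.0453), and the adjusted p rose to 0.057 with upper quartile scaling, 0.0588 with total counts, 0.0757 with a filter of 1 CPM, 0.122 with limma-voom, 0.213 without Flp clone 4 and 0.419 without Cre clone 4. Slc38a4 (chromosome 15, 96994820 to 97055956), a sodium-coupled amino acid transporter whose gene is imprinted in the mouse, differed by degree and was on in every library. It was at 118/108 CPM in clone 4, 54.6/60.5 in clone 7, 305/286 in clone 21. Each pair of cultures was close together and the 3 pairs were well apart, with clone 21 highest. Clone 21 exceeded the mean of the others by 1.87 ± 0.11 on the log2 scale (SE, edgeR adjusted p = 0.0304). This call was lost with limma-voom (adjusted p = 0.0659), with a filter of 1 CPM (adjusted p = 0.051) and when Cre clone 4, Flp clone 4, Cre clone 21 or Flp clone 21 was left out (adjusted p = 0.276, 0.133, 0.0546 and 0.0668).

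Slc34a2 (chromosome 5, 53038081 to 53071664), the epithelial sodium-phosphate cotransporter NaPi-IIb, showed a wide gap without passing edgeR's threshold. Levels were 84.9/184 CPM in clone 4, 0.0343/0.0993 in clone 7, 4.99/59.4 in clone 21. Both clone 7 cultures were near 0, both clone 4 cultures were the highest, and the 2 clone 21 cultures stood apart from each other. The log2 difference of clone 7 was -9.94 ± 0.94 (SE, edgeR adjusted p = 0.144). The 250 bases before the annotated start of the 3 genes that were nearly off in 1 clone are shown because CpG-rich and CpG-poor starts are controlled differently. They are from RefSeq on GRCm38.p6, 5′ to 3′ on the gene's strand, with every CpG (the letters CG) in capitals. The RefSeq start of Slc34a2 lies inside the GENCODE span of the gene given above.
Vwce (chr19:10633983-10634232, plus strand): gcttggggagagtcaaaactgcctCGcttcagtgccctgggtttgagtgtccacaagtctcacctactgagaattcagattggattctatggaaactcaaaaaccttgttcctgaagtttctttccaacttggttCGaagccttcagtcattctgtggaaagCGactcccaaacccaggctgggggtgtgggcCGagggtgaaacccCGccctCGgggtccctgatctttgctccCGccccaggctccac
Cpt1c (chr7:44974852-44975101, minus strand): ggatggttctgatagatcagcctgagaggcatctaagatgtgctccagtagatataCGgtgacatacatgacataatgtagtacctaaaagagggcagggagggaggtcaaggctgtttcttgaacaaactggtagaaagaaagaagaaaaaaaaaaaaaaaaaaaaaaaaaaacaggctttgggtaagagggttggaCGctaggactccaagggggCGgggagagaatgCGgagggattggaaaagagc
Slc34a2 (chr5:53049103-53049352, plus strand): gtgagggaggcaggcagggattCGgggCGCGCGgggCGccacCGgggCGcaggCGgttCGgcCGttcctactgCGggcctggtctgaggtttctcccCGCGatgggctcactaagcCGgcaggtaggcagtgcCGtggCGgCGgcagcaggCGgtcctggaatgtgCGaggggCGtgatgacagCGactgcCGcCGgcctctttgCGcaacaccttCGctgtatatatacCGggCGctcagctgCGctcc
The Slc34a2 stretch held 28 CpGs, against 7 for Vwce and 4 for Cpt1c. By these annotated starts both kinds were among the 3 genes, with Slc34a2 as the only CpG-rich case. Which start the cells used was not measured.

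**Figure D2:**
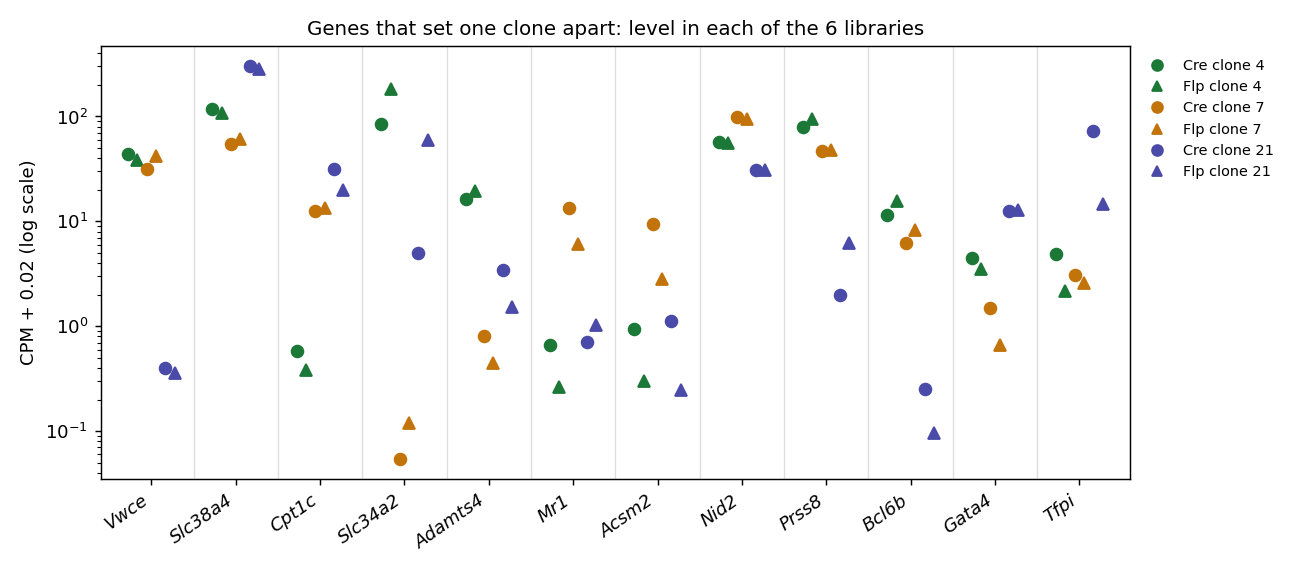
Level in CPM plus 0.02, on a log scale, of 12 genes in each of the 6 libraries; colours mark the clone, circles Cre and triangles Flp cultures. Vwce is at 0.379 and 0.338 CPM in clone 21 against 31.6 to 43.5 elsewhere, and Slc34a2 is at 0.0343 and 0.0993 CPM in clone 7.

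Genes higher in clone 4 included secreted and membrane proteins of diverse function. Adamts4, a protease that cleaves the cartilage proteoglycan aggrecan, was at 16.3 and 19.6 CPM in clone 4 and 0.422 to 3.43 elsewhere. Synj2, an inositol phosphatase of endocytosis, was at 65.8 and 101 against 14.9 to 30.2 CPM. Both genes were at least 2-fold above every other library. Habp2, a plasma serine protease, was at 9.76 and 31.8 against 0.48 to 5.56 CPM, and Map1b, which stabilises microtubules, at 191 and 229.9 against 60.4 to 129. Gdpd5 stood at 39.8 and 68.8 against 14.8 to 36.4 CPM, where the gap to the nearest library was small. The log2 differences of these 5 genes were 3.98 ± 0.36, 1.83 ± 0.16, 3.05 ± 0.32, 1.15 ± 0.12 and 1.16 ± 0.12 (SE), with edgeR adjusted p-values of 0.116, 0.116, 0.141, 0.141 and 0.141. Bcl6b, a transcriptional repressor, was highest in clone 4 and lowest in clone 21, at 11.5/15.7 CPM in clone 4, 6.21/8.22 in clone 7, 0.232/0.0751 in clone 21. DESeq2 called 36 of the 66 genes separated by 2-fold in clone 4 and gave no adjusted p to 21 of them.

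Interferon-response genes leaned higher in clone 4. Of 26 such genes tested, 9 separated clone 4 upward and 0 downward, against 7.18% and 7.48% of all genes. At an unadjusted p under 0.05, 7 were higher and 2 lower, and DESeq2 called 0. The median log2 difference was 0.36, with medians of 0.19 in the Cre and 0.34 in the Flp culture relative to the mean of the 6 libraries. Oasl1, an oligoadenylate synthetase-like protein of antiviral defence, was at 37.9/30.5 CPM in clone 4, 19.4/13.4 in clone 7, 6.22/19.5 in clone 21. Rsad2, the antiviral enzyme viperin, was at 4.09 and 3.19 CPM in clone 4 and 0.632 to 1.96 elsewhere, and Irf7, a transcription factor of the type I response, was at 2.91 and 4.2 against 0.632 to 2.55 CPM. The margins were narrow for some members, as for Dhx58 (1.32 and 1.33 against 0.993 to 1.31 CPM). Isg15, the ubiquitin-like interferon product, followed another pattern, with 1.42 to 1.82 CPM in clones 4 and 7 and 0.105 and 0.0376 in clone 21.

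Genes of antigen presentation leaned higher in clone 4 and lower in clone 21. In clone 4, 8 of 18 genes lay above all other libraries and 0 below, with a median of 0.45. In clone 21, 5 of 18 lay below and 0 above, with a median of -0.54 and 16 of 18 negative. Clone 7 had 2 above and 0 below. DESeq2 called 4 higher in clone 4 and 3 lower in clone 21, and the unadjusted p of edgeR was under 0.05 for 8 in each of those clones. H2-K1, a classical class I heavy chain, was at 458/453 CPM in clone 4, 290.4/443 in clone 7, 206/246 in clone 21. Tap2, a subunit of the peptide pump of the endoplasmic reticulum, was at 12.5 and 19.2 CPM in clone 4 and 3.22 to 11.8 elsewhere, and its partner Tap1 at 53.1 and 49.6 against 28.7 to 49. H2-Q7, a non-classical class I gene, was at 21.5/25.7 CPM in clone 4, 7.06/11.3 in clone 7, 3.46/5.75 in clone 21, and its neighbour H2-Q6 at 15.6/14.7 CPM in clone 4, 1.58/6.61 in clone 7, 1.48/2.63 in clone 21. H2 genes of this cluster are near-identical copies, so reads may have been split or shared between them. H2-K1, H2-Q6 and H2-Q7 all lie at 30 to 40 Mb of chromosome 17, so they are not independent members. The 129 genes averaging 5 CPM or more there had medians of 0.08 in clone 4 and -0.17 in clone 21. B2m, the light chain common to class I molecules, was at 496/500.5 CPM in clone 4, 382/594 in clone 7, 392/452 in clone 21, so both extremes were in clone 7 and clone 21 lay below clone 4. The transactivator Nlrc5 was at 129.5/92.2 CPM in clone 4, 69.2/113 in clone 7, 47.1/74.3 in clone 21, so its Flp clone 7 level was within the range of clone 4.

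Hoxb2 to Hoxb8 were higher in clone 4, and some Hoxa genes and Hoxb13 in clone 21. Hox transcription factors mark position along the body axis and keep that state through cell division. Of 20 Hox genes tested, 7 separated clone 4 upward and 2 downward, 2 separated clone 7 upward and 0 downward, and 5 separated clone 21 upward and 0 downward. DESeq2 called 2 higher in clone 4 and 0 in clones 7 and 21. At an unadjusted edgeR p under 0.05, 5 were higher in clone 4 and 3 in clone 21. The median log2 difference was 0.09 in clone 4, -0.93 in clone 7 and 0.05 in clone 21. In clone 7, 12 members were negative and 8 positive, and 4 were lower and 0 higher at an unadjusted edgeR p under 0.05. Its culture medians were -0.38 in Cre and -0.07 in Flp, relative to the mean of the 6 libraries. The 7 in clone 4 were Hoxb2 to Hoxb8. Hoxb5 was at 18.5/15.8 CPM in clone 4, 0.754/4.22 in clone 7, 9.21/1.8 in clone 21. Hoxb8 was at 30.5/55.1 CPM in clone 4, 2.33/8.84 in clone 7, 21.6/4.24 in clone 21. In all 7 genes Cre clone 7 was the lowest library, and Cre clone 21 was more than 2-fold above Flp clone 21. The standard errors for clone 4 were large, as in Hoxb8 with 2.28 ± 0.74 (edgeR adjusted p = 0.474). Hoxb3 shares over 50% of its exon bases with overlapping genes, so its counts are uncertain. The 5 in clone 21 were Hoxa7, Hoxa10, Hoxa11, Hoxa13 and Hoxb13. Hoxa13, the last gene of its cluster, was at 0.142/0.283 CPM in clone 4, 0.206/0.0497 in clone 7, 0.99/2.22 in clone 21.

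**Figure D3:**
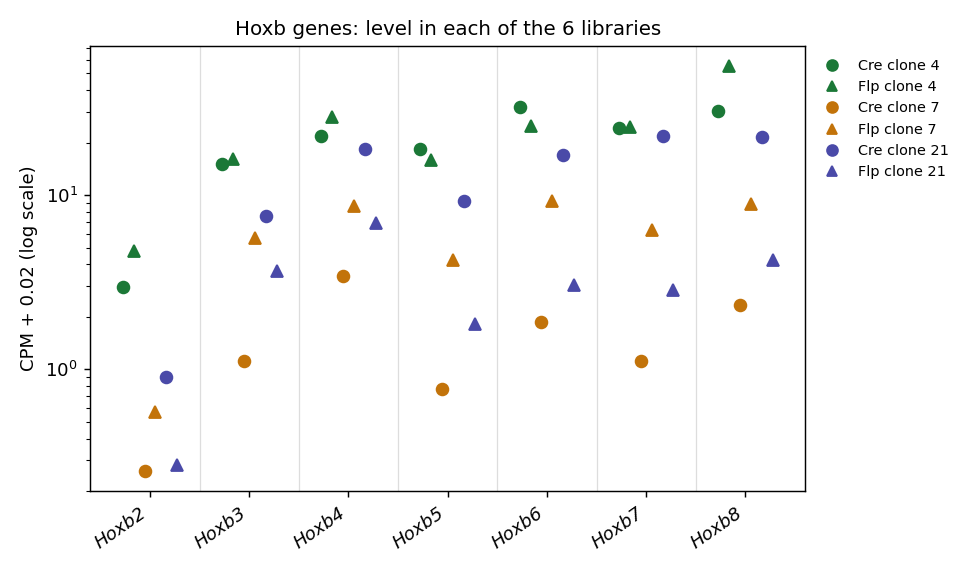
CPM plus 0.02, on a log scale, of Hoxb2 to Hoxb8 in each library, colours marking clones and symbols the recombinase. Both clone 4 libraries lie above the other 4 for each gene, while Cre clone 21 and Flp clone 21 are apart, as in Hoxb7 with 21.8 and 2.82 CPM.

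Genes of the p53 pathway leaned lower in clone 4, and some were higher in clone 21. For clone 4, 26 of 30 had negative log2 differences, with a median of -0.20, and 4 separated downward and 0 upward. For clone 21, 6 separated upward and 1 downward, with a median of 0.09, and the culture medians were 0.23 in Cre and -0.01 in Flp. Apaf1, the scaffold of the apoptosome, was at 108/97.3 CPM in clone 4, 116/112 in clone 7, 137/133 in clone 21. Eda2r, a death-domain receptor induced by p53, was at 90.9/61.9 CPM in clone 4, 94.9/85.5 in clone 7, 139/103 in clone 21, with its clone 4 Cre value inside the range of clone 7. At an unadjusted edgeR p under 0.05 there were 4 lower in clone 4 and 4 higher in clone 21, and DESeq2 called 0 in both.

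Many of the genes lower in clone 4 lay on chromosome 14. Of the 8 lower genes taken by the naming rule, 6 were there, within its first 30 Mb: Vdac2, a channel of the outer mitochondrial membrane, Top2b, a DNA topoisomerase, Vcl, the adhesion protein vinculin, Kcnk5, a potassium channel, Adk, adenosine kinase, and Ecd. Vdac2 (chromosome 14, 21825238 to 21845879) was at 84.6/90.9 CPM in clone 4, 167/192 in clone 7, 177/182 in clone 21. Top2b (chromosome 14, 16365179 to 16435462) was at 126/114 CPM in clone 4, 223/252 in clone 7, 274/274 in clone 21. Both genes were at about the same level in the 4 other libraries and clearly lower in both clone 4 cultures. The log2 differences of the 6 genes ran from -1.09 to -0.98, and their edgeR adjusted p-values from 0.141 to 0.167.

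Over the whole of chromosome 14, 25.8% of 488 genes separated clone 4 downward and 0.615% upward, with a median log2 difference of -0.47. On the other chromosomes 4.02% to 11.6% separated it downward. In stretches of 10 Mb, genes averaging 5 CPM or more behaved alike over the first 30 Mb. There 8 of 9, 16 of 18 and 34 of 44 genes separated clone 4 downward. In the second of these stretches, library medians relative to the mean of the 6 were -0.61 and -0.80 for clone 4, 0.16 and 0.56 for clone 7, and 0.35 for both cultures of clone 21. From 30 Mb onward the pattern broke: Cre clones 7 and 21 stayed high, at 0.37 to 0.69, while Flp clones 7 and 21 dropped to between -0.44 and -0.09, next to clone 4. Beyond 30 Mb the share that separated clone 4 downward was smaller and uneven, from 11 of 38 genes in the fourth stretch and 7 of 30 in the fifth to 3 of 88 in the sixth. The later stretches had 6 of 45, 5 of 40, 3 of 14, 2 of 8 and 3 of 13. The low values of clone 4 on the first 30 Mb were therefore common to both its cultures, whereas the rest of the chromosome also divided the cultures of clones 7 and 21. Copy number was not measured in these data.

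**Figure D4:**
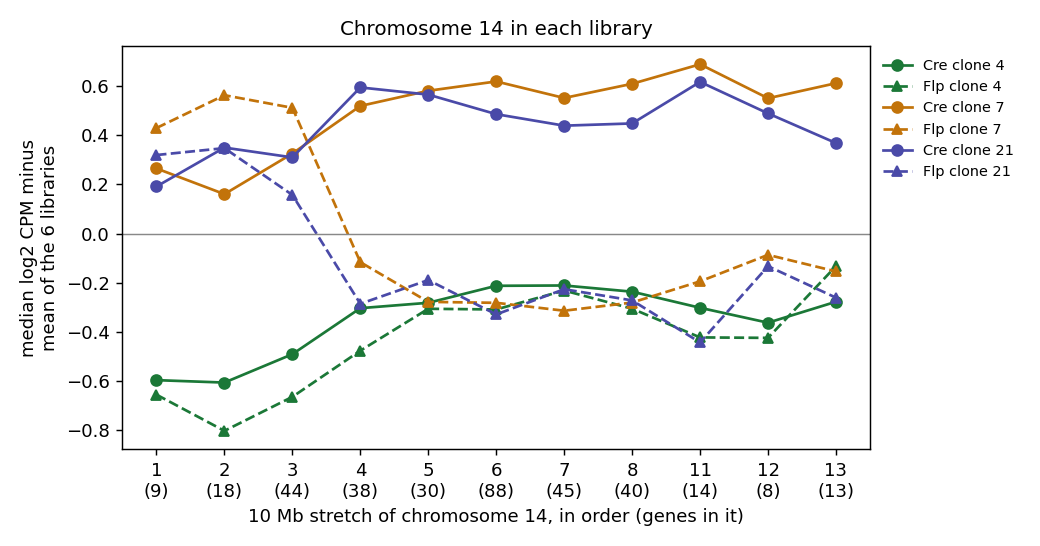
Median log2 CPM of genes in 10 Mb stretches of chromosome 14, relative to the mean of the 6 libraries, with the number of genes in brackets; solid lines are Cre and dashed lines Flp cultures. Clone 4 is at -0.49 or below in the first 3 stretches, and from the fourth onward only Cre clone 7 and Cre clone 21 lie above 0.

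Genes higher in clone 7 included a kidney enzyme and matrix proteins. Acsm2, a medium-chain acyl-CoA synthetase of proximal tubule mitochondria, was at 0.922/0.283 CPM in clone 4, 9.33/2.83 in clone 7, 1.1/0.225 in clone 21. Both clone 7 cultures were highest, and in each clone the Cre value exceeded the Flp value. Mr1, a class I-like molecule that presents vitamin B metabolites, was at 13.5 and 6.01 CPM in clone 7 with at most about 1 CPM elsewhere. Adamts16, a metalloprotease, was at 82.6/78.4 CPM in clone 4, 226/246 in clone 7, 128/170.2 in clone 21, which placed clone 7 highest, clone 4 lowest and clone 21 between. Vcl and Kcnk5 on chromosome 14 had the same order, with Vcl at 157/176 CPM in clone 4, 374/423 in clone 7, 275/269 in clone 21. Kctd6, also on chromosome 14, was at 43.2 and 48.2 CPM in clone 7 and 14.9 to 31.4 elsewhere, and Atxn7l2 at 50.4 and 27.1 against 13.7 to 26.3, a small gap. The log2 differences were 3.32 ± 0.33 for Acsm2, 3.90 ± 0.45 for Mr1 and 1.11 ± 0.13 for Adamts16 (SE), with edgeR adjusted p-values of 0.148, 0.183 and 0.183. Of 23 proximal tubule genes 3 separated clone 7 upward and 0 downward, with a median of 0.24, and DESeq2 called 3 higher. They were Acsm2, the organic anion transporter Slc22a6 and the peptidase Mme, also called neprilysin, at 12.1/13.5 CPM in clone 4, 80.7/76.8 in clone 7, 44.2/17.9 in clone 21. Enpep, aminopeptidase A, had the smallest p for the clone term in that list but did not separate clone 7, at 40/16.1 CPM in clone 4, 94.9/38.9 in clone 7, 34.5/15.7 in clone 21.

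Nid2, or nidogen 2, a linker protein of basement membranes, had a separate level in each clone. It lies on chromosome 14, 19751265 to 19811787, within the first 30 Mb, where most genes were lower in clone 4. Nid2 was at 57.4/55.4 CPM in clone 4, 99.6/94 in clone 7, 30.7/30.6 in clone 21, so each pair of cultures nearly coincided and the pairs did not overlap. Its log2 difference was 1.22 ± 0.11 in clone 7 and -1.27 ± 0.12 in clone 21 (SE, edgeR adjusted p = 0.144 and 0.109). Of 33 genes for basement membrane proteins and integrins, 6 separated clone 7 upward and 0 downward, while 1 separated clone 21 upward and 6 downward. Clone 4 had 7 upward and 2 downward. DESeq2 called 3 members higher for clone 4, 2 higher and 1 lower for clone 7, and 1 lower for clone 21. The collagen IV chains Col4a1, Col4a2 and Col4a5 were highest in clone 7 and lowest in clone 21, with Col4a5 at 202/162 CPM in clone 4, 222/247 in clone 7, 162/91.6 in clone 21. In clone 4 the members above were chiefly integrin subunits, among them Itgb5 at 109/140.2 CPM in clone 4, 42.9/105 in clone 7, 45.6/80.9 in clone 21. The Fraser complex gene Fras1, which anchors embryonic epithelia, was at 382 and 368 CPM in clone 7 and 196 to 253 elsewhere.

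Among Wnt ligands, receptors and feedback genes 5 of 27 separated clone 7 upward and 2 downward, with a median of 0.38. DESeq2 called 0 of them in clone 7, and edgeR's unadjusted p was under 0.05 for 4 higher and 2 lower. The receptors Fzd1, Fzd6 and Fzd8 were above, and the receptor Fzd7 below. Fzd6 was at 36.6 and 38.2 CPM in clone 7 and 18.5 to 35.5 elsewhere, so the margin over Cre clone 21 was slight. Of 29 imprinted genes 3 separated clone 7 upward and 5 downward. Slc38a4, the imprinted gene that edgeR called in clone 21, was not among the 29, although it also separated clone 7 downward. Peg10 and its neighbour Sgce, expressed from the paternal copy, were above, with Peg10 at 1.84/4.81 CPM in clone 4, 15.9/11.2 in clone 7, 0.885/2.18 in clone 21. Cdkn1c, which inhibits cyclin-dependent kinases, was below at 1.54 and 1.84 against 2.82 to 13.7 CPM. Airn, the antisense RNA of the Igf2r locus, was at 1.63/1.66 CPM in clone 4, 0/0.248 in clone 7, 3.35/3.04 in clone 21. Its antisense position and the unknown strand setting leave its counts uncertain.

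Several genes of diverse function were lower in clone 7 than in the other clones. Thbd, thrombomodulin, was at 34.8/74.4 CPM in clone 4, 10.4/18 in clone 7, 41.9/113 in clone 21. Nlrc4, an inflammasome receptor, was at 0.823 and 2.56 CPM in clone 7 and 6.41 to 17.9 elsewhere, and Soga3 at 1.03 and 1.39 against 4.82 to 18. Dhh, a hedgehog ligand, was at 10 and 22.9 against 24.5 to 56 CPM, a margin small beside the gap between its own cultures. These 4 genes had log2 differences of -2.12 ± 0.18, -2.86 ± 0.37, -2.84 ± 0.30 and -1.26 ± 0.17 (SE), with edgeR adjusted p-values of 0.144, 0.196, 0.16 and 0.196. DESeq2 called 25 of the 41 genes separated by 2-fold in clone 7 and gave no adjusted p to 10.

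Among genes separated by 2-fold, clone 21 had more below the other clones than above. Prss8, the protease prostasin that activates the epithelial sodium channel, was at 79.3/94.9 CPM in clone 4, 46.8/47.5 in clone 7, 1.98/6.16 in clone 21. Igfbp5, an insulin-like growth factor binding protein, was at 66.4/133 CPM in clone 4, 56.2/124 in clone 7, 11.5/10.3 in clone 21. Both were several-fold lower in each clone 21 culture than in any other library. Tal1, a transcription factor known from blood formation, was at 72.8/71.7 CPM in clone 4, 79.7/67.4 in clone 7, 26.8/23.8 in clone 21, and the lipid-modifying enzyme Pla2g16 at 16.8 and 25.6 CPM in clone 21 against 40 to 64.2. Arsi, an arylsulfatase, was at 0.969 and 0.639 against 38.7 to 135 CPM and Sh2d4a at 16 and 6.87 against 30.3 to 113. The log2 differences were -4.12 ± 0.40 for Prss8, -2.97 ± 0.32 for Igfbp5, -1.53 ± 0.13 for Tal1, -5.82 ± 0.53 for Bcl6b and -6.49 ± 0.58 for Arsi (SE), and the edgeR adjusted p-values were 0.109, 0.128, 0.108, 0.108 and 0.108. DESeq2 called 46 of the 74 genes separated by 2-fold and gave no adjusted p to 14.

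Genes higher in clone 21 included a developmental regulator and a secreted inhibitor. Gata4, a transcription factor of heart, gut and gonad development, was at 4.49/3.51 CPM in clone 4, 1.47/0.646 in clone 7, 12.6/12.7 in clone 21. Tfpi, which inhibits the tissue factor pathway of clotting, was at 73 and 14.6 CPM in clone 21 and 2.14 to 4.92 elsewhere. Its 2 clone 21 cultures differed by more than the gap to the next library. Crmp1, a cytoskeletal protein of neurons, was at 3.2 and 10.9 against 0.273 to 1.21 CPM, the iron reductase gene Cybrd1 at 4.05 and 7.7 against 0.103 to 1.78, and Mfhas1 at 78.3 and 91.1 against 34.3 to 62.5. Their log2 differences, in the order Gata4, Tfpi, Crmp1, Cybrd1 and Mfhas1, were 2.68 ± 0.31, 3.49 ± 0.41, 3.77 ± 0.43, 3.11 ± 0.40 and 0.82 ± 0.11 (SE), with edgeR adjusted p-values from 0.137 to 0.216.

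Genes of epithelial junctions and keratins leaned lower in clone 21 and higher in clone 4. Of 39 tested, 8 separated it downward and 2 upward, against 8.5% and 10.4% of all genes, with a median of -0.14. DESeq2 called 3 lower. In clone 4, 6 separated upward and 1 downward, with a median of 0.11, and DESeq2 called 4 higher. Krt18, a keratin of simple epithelia, was at 1076/1318 CPM in clone 4, 1066/872 in clone 7, 659.5/634 in clone 21. Elf3, an epithelial transcription factor, was at 28.4/55.5 CPM in clone 4, 20.9/19.7 in clone 7, 11.3/8.79 in clone 21. Dsc2, a desmosomal cadherin, was at 0.169 and 0.113 CPM in clone 21 and 3.26 to 21.3 elsewhere. Cldn7, a claudin of tight junctions, went the other way, with 65.7 and 63.8 CPM in clone 21 and 1.27 to 33.3 in the rest, where the Cre cultures of clones 4 and 7 were above the Flp cultures. Fewer epithelial cells and less RNA per cell cannot be told apart in such bulk libraries.

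Primary cilium genes leaned slightly higher in clone 21, with 10 of 36 separated upward and 3 downward. Over all genes 10.4% and 8.5% did so. The median of the group was 0.15. The amounts were small. Arl13b, a ciliary membrane GTPase, was at 22.5/22.5 CPM in clone 4, 23.8/18.3 in clone 7, 28.5/27.2 in clone 21, and Bbs7, a BBSome subunit, at 35.3/29.3 CPM in clone 4, 44.7/43.6 in clone 7, 46.2/57.3 in clone 21. Of the 36, 24 had a positive difference and 1 had an unadjusted edgeR p under 0.05, and DESeq2 called 0. Medians of this size were not particular to cilium genes. Whole 10 Mb stretches reached 0.34 and 0.19 in clone 21 at the start of chromosome 1. Others were negative, as with -0.17 at 30 to 40 Mb of chromosome 17.

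**Figure D5:**
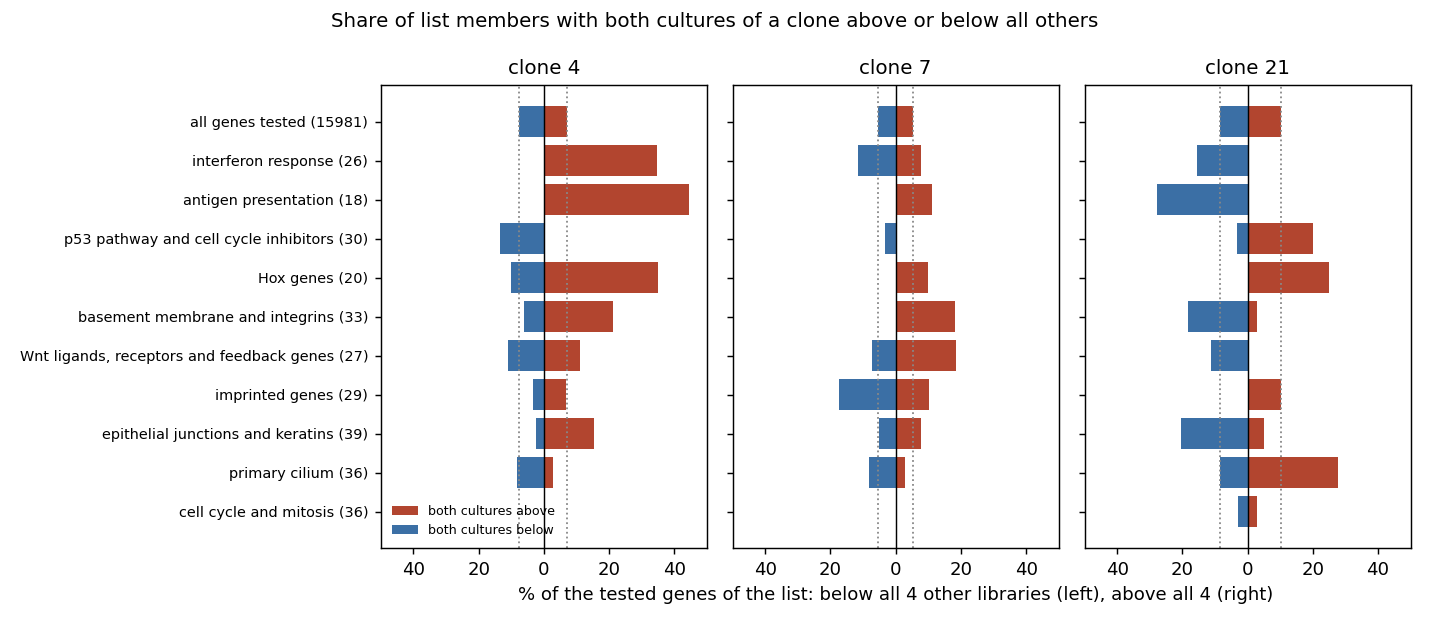
Percent of the tested genes of each list with both cultures of a clone above (right, red) or below (left, blue) all 4 other libraries, numbers of genes in brackets; dotted lines mark the share over all genes. In clone 4, 8 of 18 antigen presentation and 9 of 26 interferon-response genes lie above and none below.

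Some guidance receptors and secreted signals also separated clone 4, upward or downward. Over all genes 7.18% separated it upward and 7.48% downward, and several of the counts below are near these shares. Of 30 semaphorins, plexins, ephrins and guidance receptors 6 separated clone 4 upward and 3 downward, with a median of 0.22 (0.05 in the Cre and 0.17 in the Flp culture relative to the mean of the 6 libraries), and DESeq2 called 3 higher and 1 lower. The 6 above were Sema4d, the plexins Plxna2 and Plxnd1, the semaphorin co-receptors Nrp1 and Nrp2, and Epha2. Epha2, an ephrin receptor, was at 302/337 CPM in clone 4, 207/221 in clone 7, 218/246 in clone 21, with a log2 difference of 0.52 ± 0.10 in clone 4 (SE, edgeR adjusted p = 0.272). Plxna2 was at 19.4 and 22.4 CPM in clone 4 and 6.86 to 13.6 elsewhere. Of 27 genes of TGF-beta and BMP signalling 2 separated clone 4 upward and 4 downward, with a median of 0.00, and DESeq2 called 2 higher. The ligands went apart: Tgfb3 was at 41 and 81.2 CPM in clone 4 against 27.9 to 35.4, and Tgfb1 at 17.5 and 23.3 against 25.1 to 35.9. Of 18 chemokine and cytokine genes 3 lay above and 2 below in clone 4, the former including Spp1, osteopontin, at 23.2 and 47.4 against 14.3 to 21 CPM. Sox9, a transcription factor of tubule development and repair, was at 32/53.6 CPM in clone 4, 11.6/19.6 in clone 7, 17.4/23 in clone 21, with a log2 difference of 1.25 ± 0.15 in clone 4 (SE, edgeR adjusted p = 0.151).

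For cell cycle and mitosis, 0 of 36 genes separated clones 4 and 7 in either direction and 1 each way separated clone 21, with medians from -0.01 to 0.01, while the single cultures ranged from -0.32 to 0.23. Genes of polycystic kidney and liver disease had at most 2 of 21 separated in any clone and direction. Cholesterol synthesis genes were positive in clone 4 for 22 of 24 members, but 1 separated, and the median was 0.03 in its Cre and 0.33 in its Flp culture. Glycolysis was similar, with 19 of 21 positive and medians of -0.01 and 0.27. Flp clone 21 was high too, at 0.21 for cholesterol synthesis and 0.19 for glycolysis, and Cre clone 21 was low, at -0.43 and -0.27.

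Markers of other cell types were checked by their summed levels. Of 6 endothelial markers 4 had no read in any library, and the sum was 0.24 to 1.8 CPM. Muscle markers summed to 18.3 to 23.9 CPM in clone 4, 4.59 to 5.81 in clone 7 and 11.3 to 12.6 in clone 21, with 2 of 6 at 0. Most of this was the troponin gene Tnnt2, at 22.7/17.5 CPM in clone 4, 4.22/5.36 in clone 7, 10.9/11.9 in clone 21. Neural markers, mainly Nes, summed to 362 to 812 CPM, both extremes being in clone 7. Haematopoietic markers summed to 206 to 239 CPM in clone 4, 175 to 326 in clone 7 and 244 to 288 in clone 21, and pluripotency markers to 3.83 to 8.06 CPM over all libraries. Podocyte markers ran from 52.1 to 161 CPM, adipocyte markers from 75.9 to 341 CPM and cartilage and bone markers from 12.9 to 55.1 CPM. Their part in the differences between the clones was not tested.

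A few genes were on or off outright. By a criterion set after the data were seen, a gene counted as off when both cultures of a clone had at most 3 reads and the 4 others at least 1 CPM, and as on in the reverse case. Clone 21 lacked Htatip2, with 0 reads in both cultures against 76 to 163 reads elsewhere, at least 45.7-fold lower when 3 reads per library are taken as the floor. It also lacked Dnm3os, a host transcript of microRNAs antisense to Dnm3, with 2 and 0 reads against 98 to 1566. Its counts as an antisense gene are uncertain without the strand setting. Clone 21 alone had Edn3, endothelin 3, with 49 and 46 reads against 0 or 1, at least 15.7-fold higher. Clone 7 alone had the predicted gene Gm7173, with 72 and 99 reads against 0 or 1, at least 29-fold higher. Clone 4 had no such gene in either direction.

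Genes that set a clone apart were in places neighbours. Among those separated by 2-fold, pairs within 1000 kb in clone 4 included Hoxb2 with Hoxb3os, Slc16a6 with Arsg, St6galnac5 with St6galnac3, Tfr2 with Irs3, and Dnajc9 with Chchd1 on chromosome 14. In clone 7 they were Acsm5 with Acsm2 and Airn with 2 predicted genes, Gm7162 and Gm16574, that lie within it. In clone 21 they were Foxd3 with Gm12688, Pdx1 with Wasf3, Slc22a12 with Gm14964, Chst13 with BC048671 and Arsi with Ablim3. Both genes of every such pair had the same direction. Hoxb2 with Hoxb3os, Slc16a6 with Arsg, and Airn with its predicted genes overlap (a gap of 0 kb), so the same reads may bear on both. Foxd3, a transcription factor of early embryo and neural crest, was at 0.0473/0.162 CPM in clone 4, 0/3.82 in clone 7, 28.9/10.6 in clone 21, and Gm12688, 1.3 kb away, at 0/0 CPM in clone 4, 0.137/1.91 in clone 7, 14.8/6.27 in clone 21. On the X chromosome 18% of 490 genes separated clone 21 upward and 5.92% downward, against 10.4% and 8.5% over all genes. This was the highest upward share of any chromosome in clone 21. Chromosomes 18, 12 and 13 were near it, with 15.3%, 15.1% and 15%.

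The promoters of these genes held fewer CpGs than most. A RefSeq start was matched by symbol for 122 of the 175 genes separated by 2-fold in any clone and for 10996 of 15981 genes tested. In the 300 bases around the start, the ratio of observed to expected CpG exceeded 0.6 in 41.8% of the 122 and in 70% of all matched genes. The median number of CpGs was 11 against 20. By clone and direction the share ran from 32% of 25 genes higher in clone 4 to 60.9% of 23 genes lower in clone 4, of which several were on chromosome 14. This describes the genes, and their methylation was not measured.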

How the data were processed

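In each of the 6 libraries, counts for 49671 Ensembl genes are given as the authors deposited them, as whole numbers and without normalization. The submitters' processing notes name featureCounts 1.6.0.3, STAR 2.5.2b-2, Trim Galore 0.4.3.0, DESeq2 2.11.40.1 and FastQC 0.67, as well as the builds GRCm38 and mm10. They do not state their roles or order. Whether reads were counted by strand, and against which annotation, is not given in the sources used. Symbols and coordinates came from GENCODE M21 (49326 genes matched).

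Genes passing filterByExpr (15981) were fitted with edgeR 4.0.16 in R 4.3.3, using TMM scaling and recombinase as a block, which left 2 residual degrees of freedom. Each clone was set against the mean of the others, with Benjamini-Hochberg adjustment over all genes and a threshold of 0.05. The SE was derived from the F statistic, and log2 CPM used a prior count of 2. The test was tested on simulated data. DESeq2 1.42.0, limma 3.58.1, other scalings and filters, a depth covariate, a fit without the block and leaving out each library were alternatives.

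Named genes were up to 8 higher and 8 lower per clone that separated it, with at least 5 CPM in the higher libraries, an established symbol and at most 50% exon overlap, first by adjusted p and then by smallest p. To these came the member with the smallest clone-term p of each gene list, the conversion factors and Pkd1. Some of the genes this took are not reported here. Other members are given as examples of their list and were chosen after their values were seen. All members, lists and tests were chosen with earlier results of these data known. The criterion for on and off genes, the neighbour distance of 1000 kb, the 10 Mb stretches, the promoter set and the leave-one-out counts of separated genes were chosen after seeing the data. Figures were drawn with matplotlib 3.10.9.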

Additional observations from a re-analysis of the deposited data

How the results depend on the processing

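Counts of called genes follow in the order clone term, clone 4, clone 7 and clone 21, where the values as reported were 1, 2, 0 and 2. They were 417, 347, 218 and 160 with DESeq2, 519, 371, 280 and 176 without a filter on low counts, and 98, 88, 74 and 45 with library depth as covariate. They were 5, 0, 0 and 0 with limma-voom, 0, 0, 0 and 1 with a filter of 1 CPM in 2 libraries or at a threshold of 0.01, 1, 0, 0 and 2 with upper quartile or total count scaling, and 2, 2, 1 and 3 without chromosomes 2, 5, 6 and 14. Leaving out each library in turn gave 0 to 91, 0 to 87, 0 to 38 and 0 to 46, the lowest without Cre clone 4 and the highest without Cre clone 7. Without a filter 28286 genes were tested and edgeR's prior degrees of freedom were 21.7, against 15981 genes and 3.80. The cause of these changes was not tested.

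Without the replicate block, which here is the recombinase, the counts were 3, 2, 2 and 6. Deviations from the clone means correlated at -0.0607, 0.0903 and 0.224 between cultures of the same recombinase, so the labels did not pair the cultures by themselves.

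Separated genes numbered 66, 41 and 74 in clones 4, 7 and 21 with a 2-fold gap and 2592 in clone 7 without a filter. Leaving out each library gave 2640 to 8067, 2104 to 6579 and 3830 to 7086. By construction, fewer libraries can only keep or raise these counts. The log2 difference of Cd14 in clone 4 was -0.067 to 0.64 with a library left out, negative without Cre clone 4. That of Nes in clone 7 was -0.92 to 0.13, positive without Flp clone 7. The other 79 of 81 named gene results kept their direction under every alternative in which they were fitted. Depth limits the low genes, where 0 reads still allow up to 0.119 CPM in the shallowest library.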
